A study of Homo sapiens with 24 samples.

Results

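The enzymes described here write or erase marks on histones and on DNA. They were chosen by gene symbol from a table of 15862 genes: 85 rows met the rule, of which 82 are enzyme genes and 3 are antisense transcripts named after an enzyme gene (KDM4A-AS1, KMT2E-AS1 and PRMT5-AS1). The symbols were those that begin with KDM, KMT2, SETD, EHMT, SUV39H, HDAC, SIRT, PRMT, DNMT or KAT followed by a number, together with TET1, TET2, TET3, EP300, CREBBP, NSD1, DOT1L and CARM1. RNA sequencing was done on 24 libraries of LOUCY and JURKAT, both established human cell lines of T-cell acute lymphoblastic leukaemia. LOUCY cells were exposed for 24 h to 250 nM JQ1 (4 libraries), 500 nM I-BET151 (4 libraries) or the solvent DMSO at 0.05% (4 libraries), and untreated LOUCY and untreated JURKAT gave 6 libraries each. All groups were spread evenly over 2 experiments and shared the same medium, and each line stands for 1 cell line only.

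Histone lysines are methylated by SET-domain enzymes and by DOT1L, and the methyl groups are removed by the KDM family. Acetyl groups are placed by the KAT enzymes, EP300 and CREBBP, and removed by the zinc-dependent HDACs and the NAD-dependent sirtuins. DNMT3A and DNMT3B place new methyl groups on cytosine, DNMT1 copies existing ones at replication, and the TET enzymes oxidise them. JQ1 and I-BET151 block the bromodomains of the BET proteins, which read acetylated lysine and help to start transcription. In T-cell leukaemia several of these genes, among them EP300, KDM6A, DNMT3A and SETD2, are known as targets of mutation.

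Levels are given in RPKM, reads scaled to gene length and library size. A comparison between genes rests on the lengths used, which were checked only against the span of each gene. The ratio of implied length to span was highest for EHMT2 (1.59), followed by PRMT6 (1.02). The RPKM of EHMT2 imply a length of 28.5 kb, longer than the 17.9 kb its gene spans, so its levels are understated against other genes. The libraries held 4381134 to 7074198 reads over the listed genes, and the members took 0.496% to 0.638% of them. Of 10 T-cell markers, 8 reached a mean of 1 RPKM in each LOUCY group, where CD2 and CD5 stayed below it, and 10 did in JURKAT. The T-cell markers summed to 1204 to 1270 RPKM with JQ1 and 1040 to 1354 RPKM with I-BET151, against 1755 to 2176 RPKM with DMSO. Of 5 myeloid markers 4 were listed, and they summed to 4.22 to 6.58 RPKM with JQ1, 4.41 to 6.86 RPKM with I-BET151, 17.9 to 23.9 RPKM with DMSO, 21.1 to 34.4 RPKM in untreated LOUCY (MPO and LYZ at 1 RPKM or more) and 0.184 to 1.07 RPKM in JURKAT. Both lists were thus lower with both inhibitors, and their part in the results below was not tested. Epithelial markers summed to 0.873 RPKM or less in LOUCY and to 4.5 to 5.77 RPKM in JURKAT (KRT18), and erythroid and fibroblast markers to less than 2 RPKM in every library. Against the mean of their own group, 3 libraries, called steep-GC libraries below, leaned more to AT-rich genes than the rest. The slope on GC content was fitted to each library's deviation from its group mean in log2 expression. It was -0.226 (untreated LOUCY, experiment 2, replicate 2), -0.279 (DMSO, experiment 2, replicate 1) and -0.313 (I-BET151, experiment 2, replicate 1) per 10% of GC. In the other libraries it was -0.123 to 0.155. A lean shared by a whole group does not show in this slope. The labels do not say whether the replicates of an experiment were separate cultures, so the p-values here reflect library-to-library spread, which may be technical in part. Fewer cells with a transcript and less transcript per cell cannot be told apart in these bulk samples.

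The members spanned a wide range of levels. PRMT1, the main asymmetric arginine methyltransferase, and HDAC1, a class I deacetylase of corepressor complexes, were the most abundant of them in all 5 groups, with means of 158 to 258 RPKM and 162 to 307 RPKM. HDAC2 and DNMT1 followed in all 4 LOUCY groups. Of the 84 members other than KDM5D, 35 had a mean of 10 to 100 RPKM and 42 a mean of 1 to 10 RPKM in untreated LOUCY, where the median member stood at 7.56 RPKM. In untreated JURKAT these numbers were 21 and 55, and the median member stood at 5.95 RPKM. KDM5D lies on the Y chromosome and is counted below without its levels.

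The promoters of the members carried many CpG sites, the sequence that DNMT enzymes methylate. In the RefSeq promoter windows (GRCh38.p14, 250 bases before to 50 after the annotated start), the 75 members with an entry had a median of 29 CpG sites, against 25 for 11478 genes of the table that matched by symbol and 14 for all 27305 promoters. The E-box CACGTG, a palindrome that MYC and related factors bind, occurred in 13 of the 75 windows (17.3%), in 9.73% of those of the table's genes and in 7.43% of all promoters. The GC box GGGCGG or its reverse complement occurred in 51 windows (68%), in 66.1% of those of the table's genes and in 44.6% of all promoters. The ETS core CCGGAAG (13 windows, 17.3%) and the CCAAT box CCAAT (21 windows, 28%), each on either strand, occurred in 17.4% and 36.3% of those of the table's genes and in 10.7% and 35.7% of all promoters. The table gives 1 start per gene, and a match is a run of letters and not a proven binding site. Shown here are the 200 bases before the annotated start of the 4 members whose levels changed most with both inhibitors, with each CpG in capitals. DNMT3A, DNMT3B and KAT2A fell and SIRT2 rose. The windows hold 18 CpG sites for DNMT3A (chr2:25342484-25342683, minus strand), 3 for DNMT3B (chr20:32779652-32779851, plus strand), 10 for KAT2A (chr17:42121368-42121567, minus strand) and 18 for SIRT2 (chr19:38899619-38899818, minus strand). The DNMT3B window lies well inside the annotated span of its gene (chr20:32762385-32809356), at an internal start. Of its 6 transcripts, 1 held the bases after that start, so its few CpG sites need not be those of other DNMT3B starts. The DNMT3A window overlaps the annotated span of its gene in part (chr2:25227874-25342590), so its start is internal too. The bases after the start were held by 3 of 15 transcripts for DNMT3A, 1 of 5 for KAT2A and 9 of 19 for SIRT2.
DNMT3A: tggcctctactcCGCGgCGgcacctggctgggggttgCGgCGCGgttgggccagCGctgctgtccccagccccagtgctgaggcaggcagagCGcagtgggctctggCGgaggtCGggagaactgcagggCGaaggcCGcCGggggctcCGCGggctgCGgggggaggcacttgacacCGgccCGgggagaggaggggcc
DNMT3B: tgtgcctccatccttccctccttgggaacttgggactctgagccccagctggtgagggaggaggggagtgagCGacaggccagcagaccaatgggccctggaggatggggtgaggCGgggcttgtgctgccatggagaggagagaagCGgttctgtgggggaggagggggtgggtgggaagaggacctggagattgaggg
KAT2A: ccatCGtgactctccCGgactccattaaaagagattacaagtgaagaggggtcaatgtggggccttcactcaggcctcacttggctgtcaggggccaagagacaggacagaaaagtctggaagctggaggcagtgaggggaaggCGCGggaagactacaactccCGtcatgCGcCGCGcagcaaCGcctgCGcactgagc
SIRT2: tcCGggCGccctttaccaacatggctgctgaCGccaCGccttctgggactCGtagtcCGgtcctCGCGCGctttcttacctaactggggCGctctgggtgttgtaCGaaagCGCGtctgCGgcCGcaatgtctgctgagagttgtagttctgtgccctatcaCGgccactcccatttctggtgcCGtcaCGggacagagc

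None of the 4 windows printed here held the E-box, the GC box or the ETS core, and that of DNMT3B held the CCAAT box. DNMT3A and SIRT2 had the same number of CpG sites.

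Untreated LOUCY differed from untreated JURKAT at most members, and the difference leaned to higher levels in LOUCY. Of 82 members that passed the filter of 1 RPKM in at least 4 libraries, 39 were higher in LOUCY, 17 were lower and 26 did not pass the threshold (limma on log2(RPKM + 1), Benjamini-Hochberg adjusted p under 0.05 over all 11978 genes tested). Across all genes tested 73.1% passed, 35.5% higher and 37.5% lower, so a call as such was as common elsewhere. Among the members 47.6% were higher and 20.7% lower, with a median log2 difference of 0.21 against -0.02 over all genes. All 3 DNA methyltransferases were higher, and arginine methyltransferases leaned the other way, with 1 of 8 higher and 5 lower. SETD6, PRMT5-AS1 and TET2 fell below the filter.

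**Figure D1:**
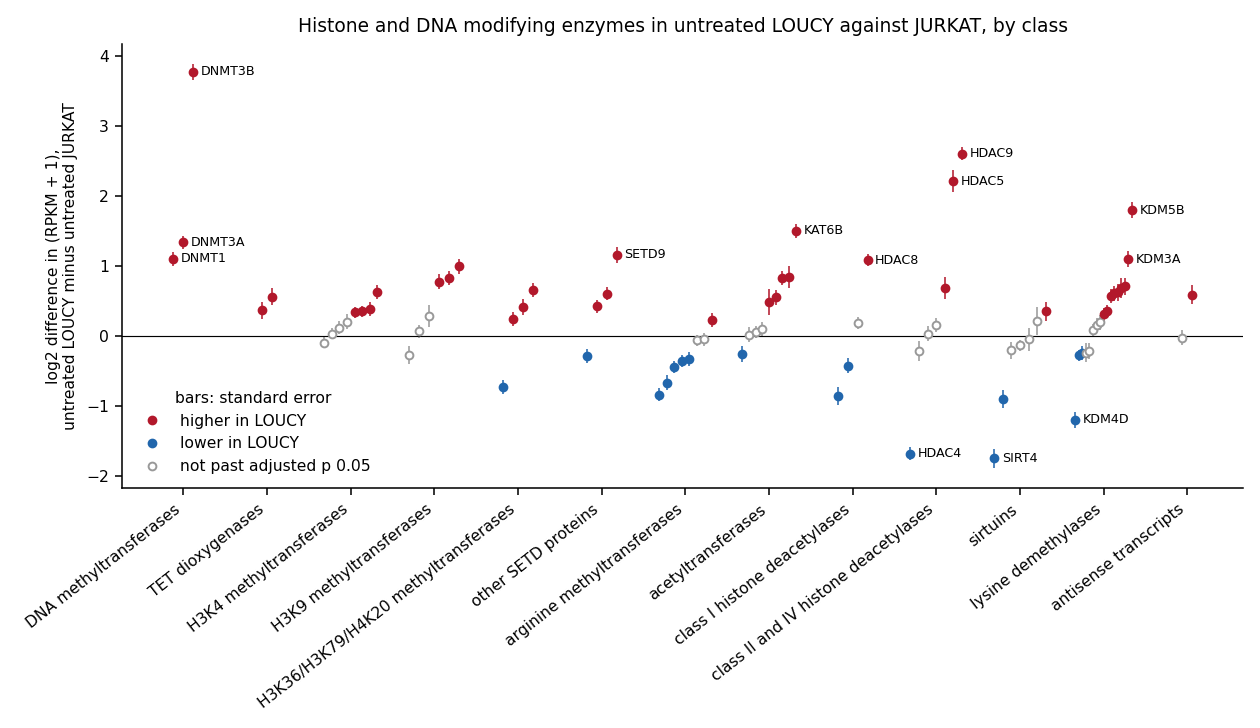
Each point is 1 member, plotted by enzyme class (x axis) against the log2 difference in RPKM + 1 between untreated LOUCY and untreated JURKAT (y axis, 6 libraries each), with the standard error as a bar. DNMT3B (3.77), HDAC9 (2.60) and HDAC5 (2.21) stand highest, SIRT4 (-1.75) and HDAC4 (-1.68) lowest. KDM5D and the 3 members below the filter are not drawn.

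The DNA methylation machinery showed the widest gap between the lines. DNMT3B, a de novo methyltransferase, stood at 24.2 RPKM (lowest), 29.6 (median) and 33.8 (highest) in LOUCY, against 0.743, 1.27 and 1.51 RPKM in JURKAT. The lowest LOUCY library was far above the highest JURKAT library, and the ratio of means was 24.0 (log2 difference 3.77 ± 0.11 SE, limma adjusted p = 1.2e-13). In JURKAT this level rested on 16 to 41 reads per library. DNMT3A, the other de novo enzyme, averaged 21.2 ± 3.5 RPKM in LOUCY and 7.76 ± 1.03 RPKM in JURKAT (SD, n = 6 each), a log2 difference of 1.33 ± 0.09 (limma adjusted p = 3.6e-09). DNMT1, the maintenance enzyme, averaged 58.1 ± 9.9 RPKM in LOUCY and 26.5 ± 4.5 RPKM in JURKAT (log2 difference 1.10 ± 0.10, limma adjusted p = 9.2e-08). For neither of these did the ranges of the lines overlap.

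The TET enzymes did not move as a block. TET1 averaged 3.94 RPKM in LOUCY and 2.38 RPKM in JURKAT (log2 difference 0.56 ± 0.12, limma adjusted p = 0.0008), and TET3 averaged 4.21 RPKM in LOUCY and 3.09 RPKM in JURKAT (0.37 ± 0.12, limma adjusted p = 0.012). Both ranges overlapped. TET2, often mutated in other blood cancers, lay below the filter: it ran from 0.0835 through a median of 0.112 to 0.205 RPKM in LOUCY, on 7 to 19 reads per library, and from 0.611 through 0.788 to 1.08 RPKM in JURKAT, on 55 to 97 reads. The ranges did not overlap, and the fit without a filter gave a log2 difference of -0.68 ± 0.07 (limma adjusted p = 3.9e-07). The pseudocount of 1 RPKM compresses a difference at such levels.

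**Figure D2:**
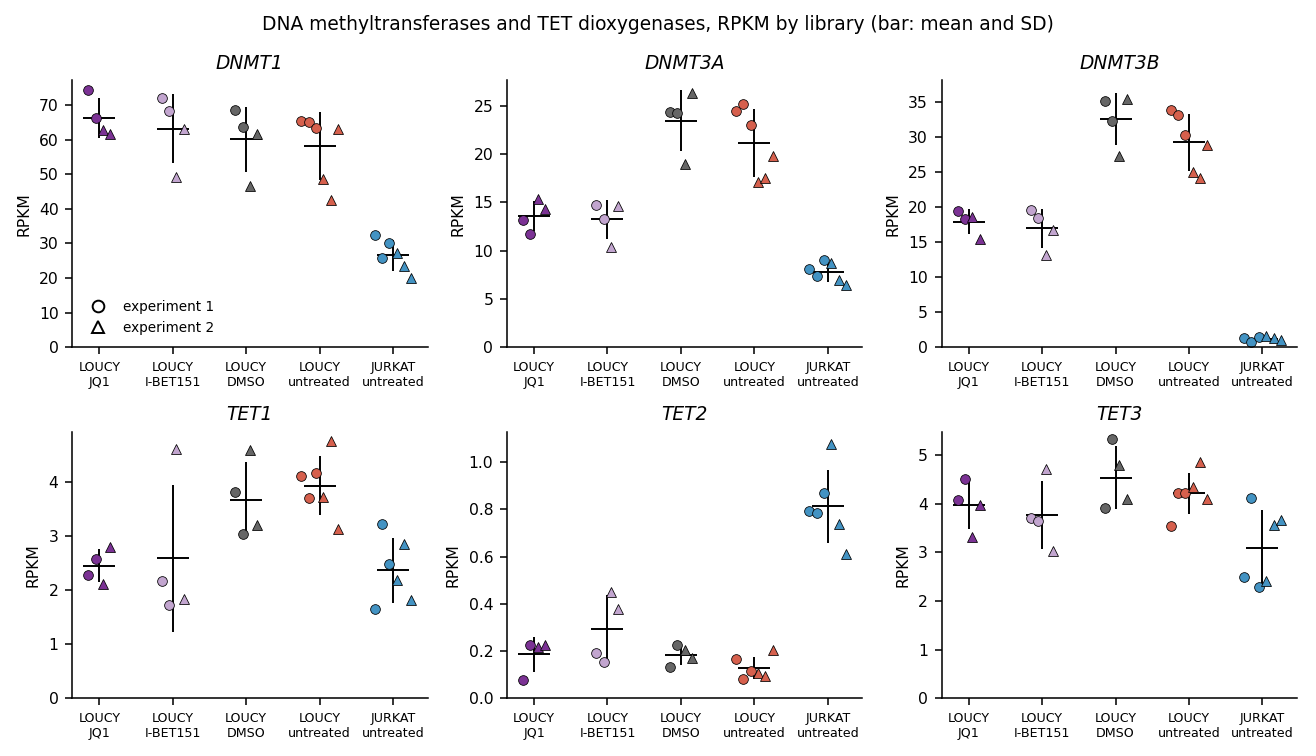
RPKM of DNMT1, DNMT3A, DNMT3B, TET1, TET2 and TET3 (y axes, starting at 0) in each library of the 5 groups (x axes), with experiment 1 as circles, experiment 2 as triangles and the mean ± SD as bars. DNMT3A and DNMT3B are lower in every library of both inhibitors than in every DMSO library, the DNMT1 values overlap, and TET2 is lower in every LOUCY library than in every JURKAT library.

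Lysine methyltransferases were higher in LOUCY or did not pass, with a few exceptions. Of 8 members placed in the class of H3K4 methyltransferases, 4 were higher and none lower, KMT2E among the higher. H3K4 methylation is a mark of active promoters and enhancers, and activity of each member on H3K4 was not checked. KMT2A, the leukaemia gene also called MLL, ran from 4.32 through 5.98 to 6.93 RPKM in LOUCY and from 3.11 through 3.35 to 3.66 RPKM in JURKAT, without overlap (log2 difference 0.63 ± 0.10, limma adjusted p = 3.3e-05). KMT2D and KMT2C, which act at enhancers, were higher by 0.39 ± 0.10 and 0.35 ± 0.08 on the log2 scale. Of 6 enzymes of H3K9, a mark of silent chromatin, 3 were higher and none lower. These were EHMT1 (0.99 ± 0.10), its partner EHMT2 (0.83 ± 0.10) and SETDB1 (0.78 ± 0.11), each without overlap of the lines and with limma adjusted p of 1.4e-05 or less. The pseudocount weighs more on EHMT2 with its understated RPKM, and the recovered reads gave 1.22 with voom. SUV39H1, which acts in constitutive heterochromatin, averaged 15.3 ± 2.9 RPKM in LOUCY and 14.6 ± 2.6 RPKM in JURKAT and did not pass.

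Among the enzymes of H3K36, H3K79 and H4K20, NSD1 went against the other 3. NSD1, which dimethylates H3K36, averaged 1.74 ± 0.30 RPKM in LOUCY and 3.52 ± 0.48 RPKM in JURKAT (log2 difference -0.72 ± 0.10, limma adjusted p = 1e-05). DOT1L, the H3K79 enzyme, averaged 3.21 ± 0.44 and 1.67 ± 0.27 RPKM in LOUCY and JURKAT (0.66 ± 0.10, limma adjusted p = 1.9e-05), and SETD8, the H4K20 monomethylase, was higher by 0.41 ± 0.11. SETD2, the H3K36 trimethylase, passed narrowly with 0.24 ± 0.10 (limma adjusted p = 0.045), and its call was lost on leaving out any 1 of 9 of the 12 libraries (adjusted p 0.0598 to 0.118). Of the remaining SETD genes, SETD9 (1.16 ± 0.11), SETD4 (0.60 ± 0.09) and SETD5 (0.42 ± 0.09) were higher and SETD3, an actin histidine methyltransferase, was lower (-0.28 ± 0.10).

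Arginine methyltransferases leaned to JURKAT. PRMT5, which makes symmetric dimethylarginine, ran from 36.8 through 53.9 to 64.2 RPKM in LOUCY and from 71.2 through 89.6 to 111 RPKM in JURKAT. The lines did not overlap, and the log2 difference was -0.84 ± 0.09 (limma adjusted p = 8.1e-07). CARM1, a coactivator, averaged 4.83 ± 0.83 RPKM in LOUCY and 8.31 ± 1.77 RPKM in JURKAT (-0.66 ± 0.10, limma adjusted p = 3.4e-05), and PRMT2 averaged 14.2 ± 1.5 and 19.7 ± 1.5 RPKM in LOUCY and JURKAT (-0.45 ± 0.08, limma adjusted p = 0.00019). PRMT1, the most abundant, averaged 245 ± 35 RPKM in LOUCY and 258 ± 51 RPKM in JURKAT and did not pass (log2 difference -0.06 ± 0.08). PRMT9 was the 1 higher member (0.23 ± 0.10, limma adjusted p = 0.045), a call lost on leaving out any 1 of 7 libraries (adjusted p 0.0782 to 0.105).

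Acetyltransferases leaned to LOUCY, with 5 of 9 higher and 1 lower. KAT6B, a MYST-family enzyme, ran from 8.79 through 12 to 12.7 RPKM in LOUCY and from 2.65 through 3.46 to 3.59 RPKM in JURKAT, without overlap (log2 difference 1.5 ± 0.10, limma adjusted p = 2e-09). KAT2A, the GCN5 subunit of the SAGA and ATAC complexes, averaged 17.4 ± 1.4 RPKM in LOUCY and 9.49 ± 1.57 RPKM in JURKAT (0.82 ± 0.10, limma adjusted p = 1.9e-06). EP300 was higher by 0.84 ± 0.16 with overlapping ranges, while its paralog CREBBP averaged 2.26 ± 0.40 and 2.22 ± 0.45 RPKM in LOUCY and JURKAT and did not pass. KAT2B, the paralog of KAT2A, was called higher (0.48 ± 0.18, limma adjusted p = 0.027), but not without any 1 of 5 libraries (adjusted p 0.0507 to 0.0722). KAT8, of the MSL and NSL complexes, was called lower at an adjusted p of 0.0498 (limma), and not without any 1 of 7 libraries (adjusted p 0.0737 to 0.116).

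The zinc-dependent deacetylases split within their classes. HDAC9, a class IIa enzyme, ran from 7.32 through 8.43 to 11.4 RPKM in LOUCY and from 0.409 through 0.552 to 0.953 RPKM in JURKAT, a ratio of means of 14.3 (log2 difference 2.60 ± 0.09, limma adjusted p = 1.2e-12). HDAC5, of the same class, averaged 13.1 ± 3.0 RPKM in LOUCY and 2.03 ± 0.55 RPKM in JURKAT (2.21 ± 0.16, limma adjusted p = 4.7e-09). HDAC4, also class IIa, went the other way, with 1.69 ± 0.32 RPKM in LOUCY and 7.62 ± 1.10 RPKM in JURKAT (-1.68 ± 0.09, limma adjusted p = 2.2e-10). None of these 3 pairs of ranges overlapped. No JURKAT library of HDAC9 reached 1 RPKM, so HDAC9 passed the filter through LOUCY alone, where it was high. The pseudocount also compresses its log2 difference, and the recovered reads gave 3.86 with voom. HDAC7, the class IIa member of thymocytes, averaged 13.6 ± 2.4 and 12 ± 1.3 RPKM in LOUCY and JURKAT and did not pass, nor did HDAC11, the class IV enzyme. In class I, HDAC8 was higher by 1.08 ± 0.09, HDAC1 (-0.85 ± 0.12) and HDAC3 (-0.42 ± 0.10) were lower, and HDAC2 did not pass.

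Of 7 sirtuins 2 were lower and 1 higher in LOUCY. SIRT4, a mitochondrial sirtuin, averaged 0.65 ± 0.309 RPKM in LOUCY, on 1 to 7 reads per library, and 4.48 ± 0.705 RPKM in JURKAT, on 23 to 33 reads (log2 difference -1.75 ± 0.14, limma adjusted p = 1.5e-08). SIRT5, another mitochondrial sirtuin that removes succinyl groups, averaged 3.14 ± 0.65 RPKM in LOUCY and 6.70 ± 1.04 RPKM in JURKAT (-0.90 ± 0.12, limma adjusted p = 7.9e-06). Both pairs of ranges were apart. SIRT4 passed the filter through the JURKAT libraries, where it was high. The call of SIRT6 (0.35 ± 0.13, limma adjusted p = 0.024) was lost without JURKAT experiment 1 replicate 2, LOUCY experiment 2 replicate 3 or JURKAT experiment 2 replicate 3 (adjusted p 0.0503 to 0.0581). SIRT1 and SIRT2 did not pass.

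Lysine demethylases leaned to LOUCY, with 9 of 18 higher and 4 lower. KDM5B, which removes H3K4 methylation, ran from 29.4 through 39.7 to 45.8 RPKM in LOUCY and from 9.19 through 9.63 to 11.5 RPKM in JURKAT. No libraries of the lines overlapped (log2 difference 1.80 ± 0.11, limma adjusted p = 6.3e-10). KDM3A, an H3K9 demethylase, averaged 17.5 ± 2.8 RPKM in LOUCY and 7.65 ± 1.12 RPKM in JURKAT (1.10 ± 0.11), and KDM5A, a paralog of KDM5B, averaged 18.5 ± 4.2 and 10.7 ± 0.9 RPKM in LOUCY and JURKAT (0.71 ± 0.12). KDM4D, also an H3K9 demethylase, was lower, with 1.10 ± 0.25 RPKM in LOUCY and 3.82 ± 0.57 RPKM in JURKAT (-1.20 ± 0.11, limma adjusted p = 7.9e-08). KDM1A, the LSD1 enzyme, averaged 39.3 ± 3.4 and 47.8 ± 4.3 RPKM in LOUCY and JURKAT (-0.28 ± 0.08, limma adjusted p = 0.0052). The H3K27 demethylases KDM6A (0.16 ± 0.10) and KDM6B (-0.21 ± 0.11) and the H3K36 demethylase KDM2B (0.08 ± 0.08) did not pass.

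The differences between the lines had the same sign in both experiments at all 56 called members. The calls rest on both experiments together, so a shared sign is partly built in and is no separate support. Of the 56, 45 were also called in experiment 1 alone and 34 in experiment 2 alone. The shares over all genes in these single-experiment fits were not taken. The filter left 78 of the 82 members to test in experiment 1 and 77 in experiment 2. Among the called members below it were HDAC9 and SIRT4 in both, KDM7A in experiment 1, and KDM4B and KMT2D in experiment 2. No member differed between the experiments by the limma interaction test, where 9 members had an unadjusted p under 0.05 and 0.0250% of all genes passed.

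JQ1 and I-BET151 moved the members about as often as other genes. In LOUCY, 12 of 81 members tested were higher and 8 lower with JQ1 than with DMSO, while 26.0% of 11411 genes passed (10.1% higher, 15.9% lower). With I-BET151 10 members were higher and 11 lower, while 26.3% of all genes passed (10.3% higher, 15.9% lower). Genes for de novo DNA methylation (DNMT3A, DNMT3B) and the acetyltransferase KAT2A were lower with both, and the deacetylase SIRT2 and the arginine methyltransferase PRMT2 were higher with both, calls that held without each single library. HDAC9 was also called lower and KDM1B and KDM3A higher with both, but 1 call of each was lost on leaving out single libraries. The inhibitors were used at different doses and were set against the same 4 DMSO libraries, so their values are given side by side and were not compared with each other. Side by side, 6 members were higher and 8 lower with each, 6 were higher with JQ1 alone, 4 were higher and 3 lower with I-BET151 alone, and 54 passed with neither.

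**Figure D3:**
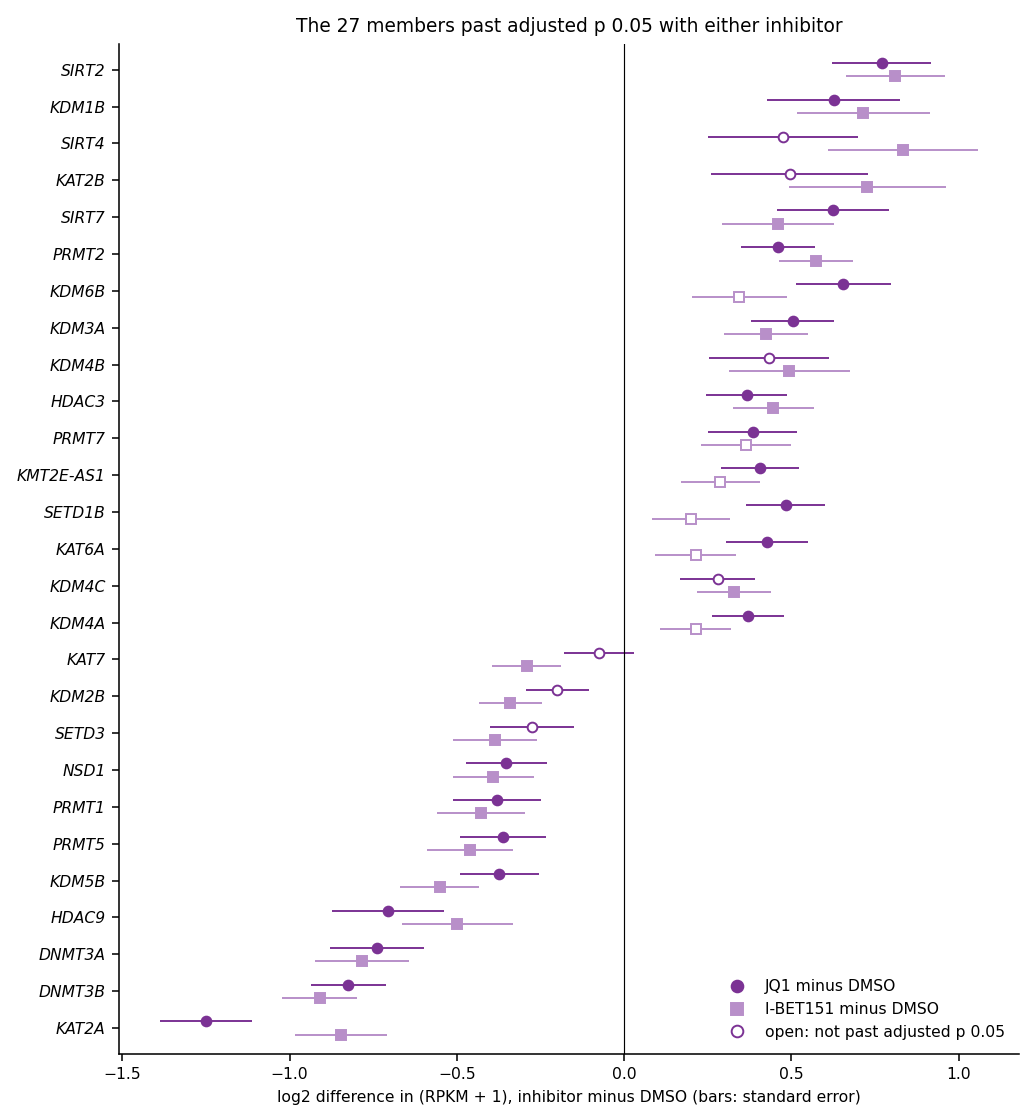
The 27 members past the threshold with either inhibitor (rows) and their log2 differences in RPKM + 1 from DMSO (x axis), JQ1 as circles and I-BET151 as squares, with the standard error as a bar and open symbols for values that did not pass. KAT2A lies at the low end (-1.25 and -0.85 for JQ1 and I-BET151), SIRT2 (0.77 and 0.81) near the high end, where SIRT4 with I-BET151 has 0.83.

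The de novo DNA methyltransferases were lower with both compounds, and the maintenance enzyme did not pass. DNMT3B had 19.4, 18.2, 18.5 and 15.4 RPKM with JQ1 and 19.5, 18.4, 13.1 and 16.7 RPKM with I-BET151, against 35.2, 32.2, 27.3 and 35.4 RPKM with DMSO. No treated library reached a DMSO library, and the log2 differences were -0.82 ± 0.11 for JQ1 (limma adjusted p = 2.2e-05) and -0.91 ± 0.11 for I-BET151 (8.1e-06). DNMT3A had 13.2, 11.7, 15.3 and 14.3 RPKM with JQ1 and 14.7, 13.3, 10.4 and 14.7 RPKM with I-BET151, against 24.4, 24.2, 19.0 and 26.4 RPKM with DMSO. These ranges did not overlap either (-0.74 ± 0.14, limma adjusted p = 0.00067, and -0.78 ± 0.14, 0.00042). DNMT1 averaged 66.3 RPKM with JQ1 and 63.3 RPKM with I-BET151, against 60.2 RPKM with DMSO. Its approximate 95% intervals on the log2 scale, built from the standard error, ran from -0.09 to 0.39 for JQ1 and from -0.17 to 0.31 for I-BET151. Both de novo genes stayed above the JURKAT level in every treated library. TET1 was at 2.45 RPKM with JQ1 and 2.59 RPKM with I-BET151, against 3.67 RPKM with DMSO, and did not pass (limma adjusted p = 0.095 and 0.091), although its JQ1 and DMSO ranges were apart. Without the 3 steep-GC libraries TET1 was called lower with each (-0.32, adjusted p = 0.043, and -0.58, 0.0025). TET3 did not pass with either, and TET2, at 0.45 RPKM or less in all LOUCY libraries, was below the filter.

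Among acetyltransferases KAT2A responded and most others did not pass. KAT2A had 6.12, 5.92, 7.20 and 6.09 RPKM with JQ1 and 8.93, 8.86, 6.70 and 10.6 RPKM with I-BET151, against 15.2, 17.9, 13.0 and 20.3 RPKM with DMSO. All treated libraries lay below all DMSO libraries (JQ1 -1.25 ± 0.14, limma adjusted p = 2.2e-06, and I-BET151 -0.85 ± 0.14, 0.00016). With JQ1 KAT2A was also the 1 member called in experiment 2 alone. The paralog KAT2B had 4.47, 5.57, 5.03 and 5.54 RPKM with JQ1 and 4.97, 5.15, 11.1 and 5.08 RPKM with I-BET151, against 3.74, 3.02, 4.70 and 2.32 RPKM with DMSO. Its I-BET151 difference (0.73 ± 0.23, limma adjusted p = 0.028) was not called without I-BET151 experiment 1 replicate 2, DMSO experiment 2 replicate 2 or I-BET151 experiment 2 replicate 1 (adjusted p 0.0529 to 0.115), and its JQ1 difference did not pass (0.49 ± 0.23). Without the 3 steep-GC libraries KAT2B was called higher with JQ1. KAT6A, a MYST-family enzyme, was higher with JQ1 (0.43 ± 0.12, limma adjusted p = 0.014), and not without DMSO experiment 1 replicate 1 (adjusted p 0.0518). KAT7, the HBO1 enzyme, was called lower with I-BET151 (-0.29 ± 0.10, limma adjusted p = 0.0455), a call lost without any 1 of 13 libraries (adjusted p 0.0531 to 0.109). EP300 (0.07 and -0.01 for JQ1 and I-BET151) and CREBBP (-0.07 and 0.22) did not pass.

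Among deacetylases HDAC9 was lower and HDAC3, SIRT2 and SIRT7 were higher. HDAC9 had 4.16, 5.68, 4.65 and 5.31 RPKM with JQ1 and 5.48, 6.09, 8.76 and 3.88 RPKM with I-BET151, against 8.65, 8.09, 10.0 and 8.03 RPKM with DMSO. The JQ1 range was apart from DMSO (-0.71 ± 0.17, limma adjusted p = 0.004). The I-BET151 range overlapped it through its steep-GC library (-0.50 ± 0.17, limma adjusted p = 0.033), and that call was lost without any 1 of 5 libraries, namely DMSO experiment 1 replicates 1 and 2, DMSO experiment 2 replicate 1, I-BET151 experiment 1 replicate 1 and I-BET151 experiment 2 replicate 2 (adjusted p 0.0604 to 0.117). The other class IIa genes HDAC4, HDAC5 and HDAC7 did not pass with either compound. HDAC3, the catalytic subunit of the NCOR corepressors, averaged 57.8 ± 5.9 RPKM with JQ1 and 61.4 ± 8.5 RPKM with I-BET151, against 45.1 ± 8.9 RPKM with DMSO (SD, n = 4 each), with overlap in both cases. Its log2 differences were 0.37 ± 0.12 (limma adjusted p = 0.033) and 0.45 ± 0.12 (0.011), and the JQ1 call was lost without any 1 of 5 libraries (adjusted p 0.0569 to 0.117). HDAC1 (-0.24 ± 0.16 and -0.25 ± 0.16 for JQ1 and I-BET151) and HDAC11 did not pass.

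SIRT2, a cytoplasmic tubulin and histone deacetylase, had 39.9, 35.0, 41.7 and 32.0 RPKM with JQ1 and 43.2, 36.8, 28.4 and 46.4 RPKM with I-BET151, against 23.0, 22.9, 15.7 and 24.7 RPKM with DMSO. Every treated library was above every DMSO library (JQ1 0.77 ± 0.15, limma adjusted p = 0.00078, and I-BET151 0.81 ± 0.15, 0.0005). SIRT7, the nucleolar H3K18 deacetylase, averaged 10.6 ± 1.2 RPKM with JQ1 and 9.43 ± 1.72 RPKM with I-BET151, against 6.71 ± 2.00 RPKM with DMSO (0.63 ± 0.17, limma adjusted p = 0.0094, and 0.46 ± 0.17, 0.0498). The I-BET151 call of SIRT7 was lost without any 1 of 14 of the 18 libraries (adjusted p 0.0524 to 0.172). SIRT4 had 1.06, 3.07, 1.71 and 1.87 RPKM with I-BET151 and 1.45, 0.635, 0.925 and 2.14 RPKM with JQ1, against 0.677, 0.481, 0.986 and 0.309 RPKM with DMSO. It passed with I-BET151 (0.83 ± 0.22, limma adjusted p = 0.010) on 7 to 19 reads per library against 2 to 8 with DMSO, and not with JQ1 (0.48 ± 0.22). No DMSO library of SIRT4 reached the filter level of 1 RPKM, and every I-BET151 library did. SIRT4 thus entered the test through libraries where it was high, so its call is not independent of the filter. SIRT1 did not pass (0.61 ± 0.30 and 0.72 ± 0.30), and its 37.3 RPKM in the I-BET151 library of steep GC slope stood apart from 11 to 15.1 RPKM in the others of that group. SIRT1 was called higher with JQ1 without the 3 steep-GC libraries, and with I-BET151 after removal of the GC trend.

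**Figure D4:**
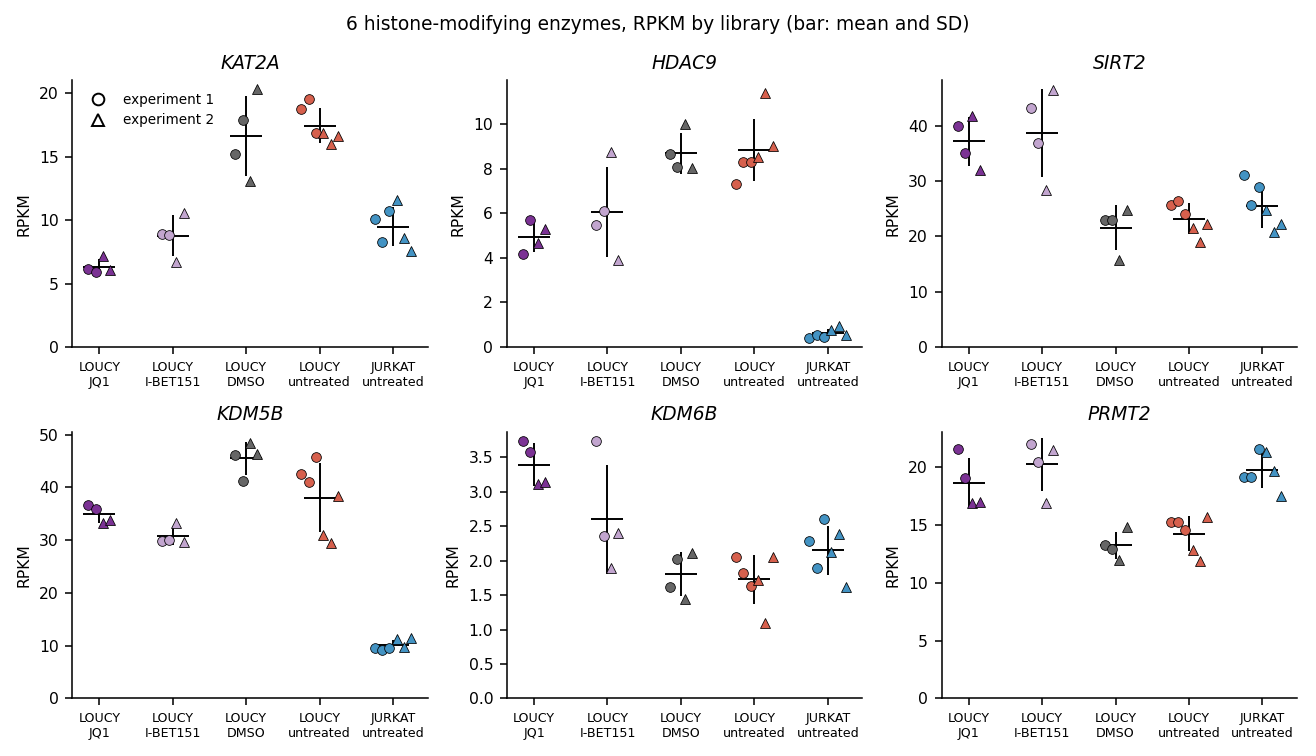
RPKM of KAT2A, HDAC9, SIRT2, KDM5B, KDM6B and PRMT2 (y axes, starting at 0) in each library of the 5 groups (x axes), with experiment 1 as circles, experiment 2 as triangles and the mean ± SD as bars. KAT2A and KDM5B are lower and SIRT2 and PRMT2 higher in every treated library than in every DMSO library.

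Lysine demethylases were moved in both directions. With JQ1 4 of 17 tested were higher and 1 lower, and with I-BET151 4 were higher and 2 lower. KDM6B, which removes H3K27 methylation, had 3.74, 3.58, 3.12 and 3.15 RPKM with JQ1, against 1.62, 2.02, 1.45 and 2.12 RPKM with DMSO, without overlap (0.65 ± 0.14, limma adjusted p = 0.0021). With I-BET151 it had 3.74, 2.36, 1.90 and 2.40 RPKM and did not pass (0.34 ± 0.14, limma adjusted p = 0.082), and KDM6A did not pass with either compound. KDM6B was called higher with I-BET151 after removal of the GC trend and in the voom fit of the recovered reads. KDM6A was called higher with JQ1 without the 3 steep-GC libraries. KDM5B had 36.6, 35.8, 33.3 and 33.8 RPKM with JQ1 and 29.9, 30.0, 33.3 and 29.7 RPKM with I-BET151, against 46.1, 41.2, 48.5 and 46.3 RPKM with DMSO. The ranges were apart for both (-0.37 ± 0.12, limma adjusted p = 0.025, and -0.55 ± 0.12, 0.0019), though the JQ1 call was lost without any 1 of 6 libraries, the 4 JQ1 libraries and the 2 DMSO libraries of experiment 2 (adjusted p 0.0505 to 0.071). All treated values of KDM5B lay within the range of untreated LOUCY given above, so this separation holds against DMSO only.

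KDM1B, a histone H3K4 demethylase also called LSD2, had 5.87, 5.4, 5.59 and 5.45 RPKM with JQ1 and 4.96, 4.95, 11.1 and 4.57 RPKM with I-BET151, against 3.44, 3.25, 3.12 and 3.23 RPKM with DMSO. All treated libraries exceeded all DMSO libraries (0.63 ± 0.20, limma adjusted p = 0.026, and 0.71 ± 0.20, 0.012), and the JQ1 call was lost without JQ1 experiment 1 replicate 1 or 2 or DMSO experiment 2 replicate 1 or 2 (adjusted p 0.0616 to 0.0828). KDM3A averaged 27.2 ± 2.2 RPKM with JQ1 and 25.6 ± 1.7 RPKM with I-BET151, against 19.0 ± 3.1 RPKM with DMSO (0.50 ± 0.12, limma adjusted p = 0.0056, and 0.42 ± 0.12, 0.017). The I-BET151 call of KDM3A was lost without either DMSO library of experiment 1 or without I-BET151 experiment 1 replicate 2 (adjusted p 0.0509 to 0.0735). KDM2B, a subunit of a variant Polycomb complex, was lower with I-BET151 (-0.34 ± 0.09, limma adjusted p = 0.012) and did not pass with JQ1 (-0.20 ± 0.09) or after removal of the GC trend (I-BET151 adjusted p 0.123). KDM4B passed with I-BET151 at an adjusted p of 0.049 (limma), a call lost without any 1 of 13 libraries (adjusted p 0.0524 to 0.16). KDM1A did not pass with either (-0.22 ± 0.12 and -0.29 ± 0.12), but was called lower with each without the 3 steep-GC libraries (-0.32, adjusted p = 0.013, and -0.30, 0.032).

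Arginine methyltransferases split by member. PRMT2, a nuclear receptor coactivator, had 21.5, 19.0, 16.9 and 17.0 RPKM with JQ1 and 22.0, 20.5, 16.9 and 21.5 RPKM with I-BET151, against 13.3, 12.9, 11.9 and 14.8 RPKM with DMSO. Neither treated range overlapped that of DMSO (0.46 ± 0.11, limma adjusted p = 0.0043, and 0.57 ± 0.11, 0.00076). PRMT1 and PRMT5, the main asymmetric and symmetric enzymes, were called lower with both. PRMT1 averaged 160.5 ± 10.6 RPKM with JQ1 and 158 ± 30.6 RPKM with I-BET151, against 211 ± 30.8 RPKM with DMSO (-0.38 ± 0.13, limma adjusted p = 0.04, and -0.43 ± 0.13, 0.022). PRMT5 averaged 42.5 ± 2.6 RPKM with JQ1 and 40.0 ± 6.4 RPKM with I-BET151, against 55.1 ± 6.1 RPKM with DMSO (-0.36 ± 0.13, limma adjusted p = 0.043, and -0.46 ± 0.13, 0.012). The I-BET151 call of PRMT5 held without each single library, at an adjusted p of up to 0.0497, and was lost without the experiment term and in experiment 2 alone. The other 3 calls were lost on leaving out single libraries. The JQ1 calls were lost without any 1 of 7 libraries for PRMT1 (adjusted p 0.0502 to 0.144) and of 10 for PRMT5 (0.0516 to 0.143), and the I-BET151 call of PRMT1 without I-BET151 experiment 1 replicate 2, DMSO experiment 2 replicate 2 or I-BET151 experiment 2 replicate 1 (0.0544 to 0.091). PRMT7 was called higher with JQ1 (0.38 ± 0.13, limma adjusted p = 0.04), a call lost without any 1 of 7 libraries (adjusted p 0.051 to 0.125), and CARM1 did not pass.

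Few lysine methyltransferases passed. SETD1B, an H3K4 methyltransferase of the COMPASS family, had 5.81, 4.87, 4.67 and 5.91 RPKM with JQ1, against 4, 3.1, 3.28 and 3.69 RPKM with DMSO, without overlap (0.48 ± 0.12, limma adjusted p = 0.005), and did not pass with I-BET151. After removal of the GC trend SETD1B was called higher with I-BET151 too. NSD1 had 1.53, 1.22, 1.16 and 1.55 RPKM with JQ1 and 1.51, 1.24, 0.950 and 1.53 RPKM with I-BET151, against 1.99, 1.98, 2.04 and 2.03 RPKM with DMSO. The ranges were apart (-0.35 ± 0.12, limma adjusted p = 0.038, and -0.39 ± 0.12, 0.022), yet the calls were lost without any 1 of 7 libraries for JQ1 (adjusted p 0.0573 to 0.108) and of 3 for I-BET151, namely I-BET151 experiment 1 replicate 2, DMSO experiment 2 replicate 2 and I-BET151 experiment 2 replicate 1 (0.054 to 0.0716). SETD3 was lower with I-BET151 (-0.39 ± 0.13, limma adjusted p = 0.029), and not without any 1 of 5 libraries (adjusted p 0.0523 to 0.102). KMT2A (-0.25 ± 0.13 and -0.29 ± 0.13), KMT2D, SETD2 and DOT1L did not pass. All 6 H3K9 enzymes had negative differences with each inhibitor and none passed. Without the 3 steep-GC libraries, EHMT2 (-0.48, adjusted p = 0.008, and -0.41, 0.030) and SUV39H1 (-0.43, 0.018, and -0.40, 0.042) were called lower with JQ1 and I-BET151. The antisense transcript KMT2E-AS1 was called higher with JQ1 (0.41 ± 0.12, limma adjusted p = 0.015), and not without DMSO experiment 1 replicate 1 or JQ1 experiment 1 replicate 1 (adjusted p 0.0551 to 0.0664) nor after removal of the GC trend (0.113). The libraries do not mark strand. The annotated spans of KMT2E-AS1 and KMT2E do not overlap, whereas KDM4A-AS1 overlaps KDM4A and PRMT5-AS1 overlaps PRMT5. Reads of KDM4A and KDM4A-AS1, and of PRMT5 and PRMT5-AS1, cannot be told apart where they overlap.

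The inhibitor calls had the same sign in both experiments, which calls made on both together favour. Taken alone, experiment 1 called 19 members with JQ1 and 16 with I-BET151, and experiment 2 called 1 with each, KAT2A and DNMT3B, with 2 libraries per group in either. No member differed between the experiments by the limma interaction test, where 2 members for JQ1 and 0 for I-BET151 had an unadjusted p under 0.05 and 0.00876% of all genes passed for each. Single libraries moved the counts too. With JQ1 the number of lower members was 4 without JQ1 experiment 1 replicate 1 or 2, and 5 without DMSO experiment 1 replicate 1 or 2, DMSO experiment 2 replicate 2 or JQ1 experiment 2 replicate 2. With I-BET151 the number of higher members was 6 without DMSO experiment 1 replicate 2 or I-BET151 experiment 1 replicate 2, and the number of lower members was 7 without I-BET151 experiment 1 replicate 2 or DMSO experiment 2 replicate 2. The number of lower calls, 8 with JQ1 and 11 with I-BET151 over all libraries, was larger without the libraries of steep GC slope. Without these 3 libraries 15 members were higher and 16 lower with JQ1, and 9 higher and 16 lower with I-BET151. Higher calls gained there were SIRT1, KAT2B, PRMT9 and KDM6A with JQ1, and I-BET151 gained no higher call. Lower calls gained there were KDM1A, PRMT6, TET1, EHMT2 and SUV39H1 with both, SETD3, CARM1 and EHMT1 with JQ1 and KDM2A with I-BET151. After removal of each library's GC trend the higher and lower counts were 12 and 14 for JQ1 and 15 and 17 for I-BET151. Higher calls gained by this were KDM4B with JQ1 and KDM4A, SIRT1, SETD1B, PRMT7 and KDM6B with I-BET151. Lower calls gained were PRMT6, TET1, PRMT3, EHMT2, HDAC2 and SUV39H1 with both and KDM1A with I-BET151. The shares over all genes in these fits were not taken, so the counts are not a result particular to the members. Of the 20 JQ1 and 21 I-BET151 calls, 19 of each were kept without the 3 steep-GC libraries.

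No member passed with DMSO alone. Of 81 tested, 0 were higher and 0 lower in DMSO than in untreated LOUCY (limma), while 0.175% of all genes passed, and fits of the recovered reads with voom also called 0. An unadjusted p under 0.05 was reached by 6 members, KDM5A, SETD1B, KDM5B, CARM1, KMT2A and KDM4A, with adjusted p of 0.269 or more, as by 1100 of 11411 genes in all. KDM5B averaged 45.5 ± 3.1 RPKM with DMSO (n = 4) and 38 ± 6.5 RPKM in untreated LOUCY (n = 6), with overlap.

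Genes that work with the members were read from a list of 90 partners in 8 groups. Between the lines 33 of 88 tested were higher in LOUCY and 20 lower. These counts stand beside 35.5% of all genes higher and 37.5% lower. Some partners went the way of their enzymes and others did not. Of 4 PRMT5 partners 2 were called, both lower like PRMT5: WDR77, its obligate MEP50 partner, averaged 59.1 ± 8.1 RPKM in LOUCY and 102 ± 22 RPKM in JURKAT (log2 difference -0.76 ± 0.08, limma adjusted p = 2.6e-07), and RIOK1 fell by 0.73 ± 0.08 on the log2 scale. Of 5 DOT1L partners 3 were higher, among them MLLT3 (1.67 ± 0.09) and AFF1 (1.30 ± 0.10) of the elongation complexes. ATF7IP, the SETDB1 cofactor, was higher by 1.90 ± 0.08, and SMYD2, a lysine methyltransferase outside the symbol rule, by 1.65 ± 0.08. Against the higher DNMT genes, 0 of 7 DNA methylation partners tested were higher and 2 lower, UHRF1, which recruits DNMT1 (-0.33 ± 0.12, limma adjusted p = 0.022), and OGT, a TET partner (-0.58 ± 0.07, 1.2e-06). Of 7 H3K9 partners 3 were higher and 2 lower, TRIM28 (-0.33 ± 0.09, limma adjusted p = 0.0033) and CBX5 (-0.33 ± 0.08, 0.002), while SETDB1, EHMT1 and EHMT2 were higher.

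With the inhibitors 9 of 89 partners were higher and 8 lower for JQ1, and 7 and 7 for I-BET151. Over all genes 10.1% were higher and 15.9% lower for JQ1, and 10.3% and 15.9% for I-BET151, so the partners passed no more often than other genes. WDR77 was lower with each (-0.41 ± 0.10, limma adjusted p = 0.0039, and -0.44 ± 0.10, 0.0023). ING1, a reader subunit of the SIN3 deacetylase complex placed on the list among acetyltransferase partners with the other ING genes, averaged 12.1 ± 1.6 RPKM with JQ1 and 13.0 ± 2.4 RPKM with I-BET151, against 5.85 ± 1.28 RPKM with DMSO (0.94 ± 0.16, limma adjusted p = 0.0002, and 1.03 ± 0.16, 8.5e-05). TDG, the glycosylase that excises oxidised methylcytosine made by TET enzymes, was higher with each (0.39 ± 0.11, limma adjusted p = 0.017, and 0.58 ± 0.11, 0.00094). MTA3, of the NuRD deacetylase complex, was lower with each (-0.66 ± 0.11, limma adjusted p = 0.00022, and -0.45 ± 0.11, 0.0053). With DMSO against untreated LOUCY 0 of 89 partners passed.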

How the data were processed

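PolyA RNA was made into Smart-seq2 and Nextera XT libraries, which do not mark strand, per the labels' protocols. The authors deposited RPKM per gene. STAR 2.5.1b, featureCounts, Subread 1.4.5-p1, edgeR 3.10.5 and hg38 are named in the submitters' processing notes. RPKM steps per gene gave whole reads for 100% of genes (tolerance 0.01), from which depth was read, 4381134 to 7074198 reads per library.

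The tests used limma 3.58.1 in R 4.3.3 on log2(RPKM + 1), with genes of at least 1 RPKM in at least 4 libraries of the fit, an additive experiment term and a mean-variance trend. P-values were adjusted by Benjamini-Hochberg over all genes tested, with a threshold of 0.05. The lines were fitted on the 12 untreated libraries, and the inhibitors and DMSO on the 18 LOUCY libraries. A log2 difference on this scale understates the change of low genes, and ± beside it is its standard error. The fit and the read recovery were tested on simulated data. All 18 pairs of replicates within an experiment differed by more than sampling noise (chi-square per degree of freedom 1.64 to 46.7 over genes with at least 10 reads in the pair), so none was a repeat deposit of another by that measure. This does not show that they came from separate cultures.

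Members named with values were a panel by class, and up to 3 called members higher and 3 lower per class and comparison. Of the partner genes, up to 2 per complex and direction were chosen by adjusted p. The members, lists and panel were chosen with earlier results of these data known. Alternatives changed the pseudocount, filter, scaling, experiment term, replicate block, GC content and libraries. A count model was not the main test because the deposited unit is RPKM. One marker list is not reported here.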

Additional observations from a re-analysis of the deposited data

Results flagged for a closer look

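In 31 of 315 tests over 63 named members and 5 groups, the highest or lowest library stood apart from the rest of its group by Dixon's criterion, which chance meets in about 1 of 20 groups. The values are RPKM, and the causes were not tested.

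The I-BET151 library of steep GC slope (experiment 2, replicate 1) accounted for 10 of them. It was high for CREBBP (5.98, others 1.64 to 2.33), KAT2B (11.1, others 4.97 to 5.15), KDM1B (11.1, others 4.57 to 4.96), KDM5B (33.3, others 29.7 to 30.0), KMT2E-AS1 (3.30, others 2.40 to 2.54), SIRT1 (37.3, others 11 to 15.1) and TET1 (4.62, others 1.73 to 2.18). It was low for SETD3 (9.86, others 13.5 to 13.8), SETD5 (8.26, others 11 to 11.2) and SETDB1 (8.13, others 11.7 to 12.3).

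The DMSO library of steep GC slope (experiment 2, replicate 1) accounted for 5. It was high for PRMT9 (17.5, others 9.69 to 9.87) and low for KDM4D (0.452, others 1.24 to 1.26), PRMT5 (46.0, others 57.9 to 58.5), SETD5 (9.25, others 12 to 12.1) and SUV39H1 (9.48, others 15.4 to 15.9).

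The other libraries had few such values each. In I-BET151 experiment 1, replicate 1 was low for HDAC8 (22.3) and high for SETD9 (11.9) and SIRT6 (14.2), and replicate 2 was high for EP300 (9.55). In JQ1, KAT2A (7.20) and SETD8 (7.94) were high in experiment 2 replicate 1, KDM6A (8.15) was high and KMT2E-AS1 (2.45) and SIRT5 (2.44) were low in experiment 1 replicate 2, and TET2 (0.0762) was low in experiment 1 replicate 1. In untreated LOUCY, EHMT1 (8.42) and KDM1A (45.8) were high in experiment 1 replicate 1, and SETD4 (5.84) was low in experiment 2 replicate 1. In JURKAT, HDAC10 (3.57) was high in experiment 1 replicate 3, KAT6B (2.65) was low in experiment 1 replicate 2 and SIRT5 (8.72) was high in experiment 2 replicate 1.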

How the results depend on the processing

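No called member changed sign under any alternative run. Experiment 2 alone gave 25 members higher and 10 lower for LOUCY against JURKAT, 0 and 1 for JQ1 and 0 and 1 for I-BET151, and experiment 1 alone gave 5 higher for I-BET151. Without the 3 libraries of steep GC slope 16 members were lower with JQ1. Removal of the GC trend gave 14 lower with JQ1 and 17 with I-BET151. The causes were not tested, and the shares over all genes in these fits were not taken. The fits of 1 experiment had fewer libraries per group, and fewer members passed the filter in them. For the lines these were 78 in experiment 1 and 77 in experiment 2, against 82 in both together. Leaving out 1 library at a time gave 36 to 39 higher and 15 to 18 lower for the lines, 8 to 13 and 4 to 10 for JQ1, 6 to 11 and 7 to 13 for I-BET151, and 0 and 0 for DMSO. Fits of the recovered reads with limma's voom, chosen after seeing the data, called 40 and 16, 13 and 7, 12 and 10, and 0 and 0 in the same sequence of comparisons. The edgeR alternative was not run.

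Deviations of same-numbered libraries from their group means had correlations of -0.548 to 0.697 between groups. The highest was that of I-BET151 and DMSO in experiment 2, where replicate 1 of each was a steep-GC library. With 2 libraries per group and experiment the 2 deviations mirror each other. The check therefore cannot decide whether the numbers pair the samples. With the replicate number as a replicate block, 38 members were higher and 17 lower for the lines, 12 and 6 for JQ1, 8 and 9 for I-BET151, and 0 and 0 for DMSO. Depth limited low members such as SIRT4 and TET2 most, on fewer than 20 reads in several libraries.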
